A study of Mus musculus with 4 samples.

Results

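The small leucine-rich proteoglycans (SLRPs) and the lysyl oxidases were followed in sarcomas of mice carrying a heterozygous p53 mutation, with and without arsenic trioxide (ATO). The set was given by gene symbol, with no threshold on a measured level, although with earlier results of these data known, and comprised 10 of the 56691 genes in the deposited table. Of these, 5 were SLRPs (Dcn, Lum, Bgn, Fmod and Ogn) and 5 were lysyl oxidases (Lox, Loxl1, Loxl2, Loxl3 and Loxl4). All 10 passed the filter on low counts and were tested.

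SLRPs are secreted proteins whose leucine-rich repeats bind collagen fibrils and set fibril diameter and spacing, and several of them also bind growth factors such as Tgfb. Lysyl oxidases are copper enzymes that oxidise lysine residues of collagen and elastin, from which the covalent crosslinks of the matrix form. Both families are made mainly by fibroblasts and other mesenchymal cells, and crosslinked collagen stiffens the stroma of many tumors.

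RNA-seq was performed on 4 spontaneous sarcomas from W/+ mice, all of genotype p53R282W/+ in the labels, which name the human residue for the mouse knock-in allele. The 2 ATO sarcomas (ATO 1 and ATO 2) came from mice given ATO in the drinking water until death, and the 2 control sarcomas (PBS 1 and PBS 2) came from mice that the labels call PBS-treated and the study calls untreated. The age of each mouse, its sex and the histological type of each sarcoma are not given in the sources used here, and the study describes angiosarcomas, soft tissue sarcomas and osteosarcomas among such mice. Although the tissue is given as tumor, a cell culture medium containing insulin, dexamethasone and isobutylmethylxanthine is listed for all 4 samples. RNA came from tumor tissue, but no source used here ties each sample to a separate mouse, so that p-values measure the spread between these samples.

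Total counts ranged from 15259695 to 18134000 per sarcoma. The 10 genes together took between 0.190% and 0.566% of them, so that counting error was small beside the spread between sarcomas. The mitochondrial share was 14.7% in ATO 2, where the other sarcomas lay between 1.98% and 2.59%. Levels are given as FPKM, the read count scaled to the exonic length of the gene and to the total count, which allows genes to be set side by side. The ATO and PBS groups were tested on counts with the quasi-likelihood method of edgeR, and levels on that scale are CPM, counts scaled to the library size, after TMM normalization, which assumes that most genes are alike between sarcomas. In bulk tissue, fewer cells of a type and less RNA per cell cannot be told apart.

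The labelled tissue was checked against mesenchymal genes. Vim had an FPKM of 581.3 in PBS 1, 811.6 in PBS 2, 130.5 in ATO 1 and 272.0 in ATO 2, and Sparc lay between 494.4 and 1719 in all 4. Epithelial genes summed to an FPKM of at most 18.8 over 5 genes. The sarcomas differed widely in other cell type markers. Skeletal muscle genes summed to 10.1 and 137.1 in PBS 1 and PBS 2 against 13552 and 963.4 in ATO 1 and ATO 2. Adipocyte genes summed to 12.7 and 66.2 in PBS against 228.7 and 1369 in ATO. Endothelial genes were highest in PBS 2 (951.5, against 87.3 to 167.5 in the other sarcomas). Osteoblast genes summed to 577.0 and 111.8 in PBS against 2404 and 874.9 in ATO, and tendon genes to 36.9 and 30.1 against 43.95 and 52.5. Among osteoblast genes, Ibsp and Sp7, which mark bone-forming cells, reached 290.9 and 40.5 in ATO 1 and at most 0.35 and 0.39 in the other sarcomas. Spp1, of the same list, had 563.95 and 105.4 in PBS against 1847 and 869.7 in ATO. It made up most of the osteoblast sum in every sarcoma, as Thbs4 did of the tendon sum. Fibroblast genes summed to 1301 in PBS 1 and to between 313.2 and 546.1 in the others.

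**Figure D1:**
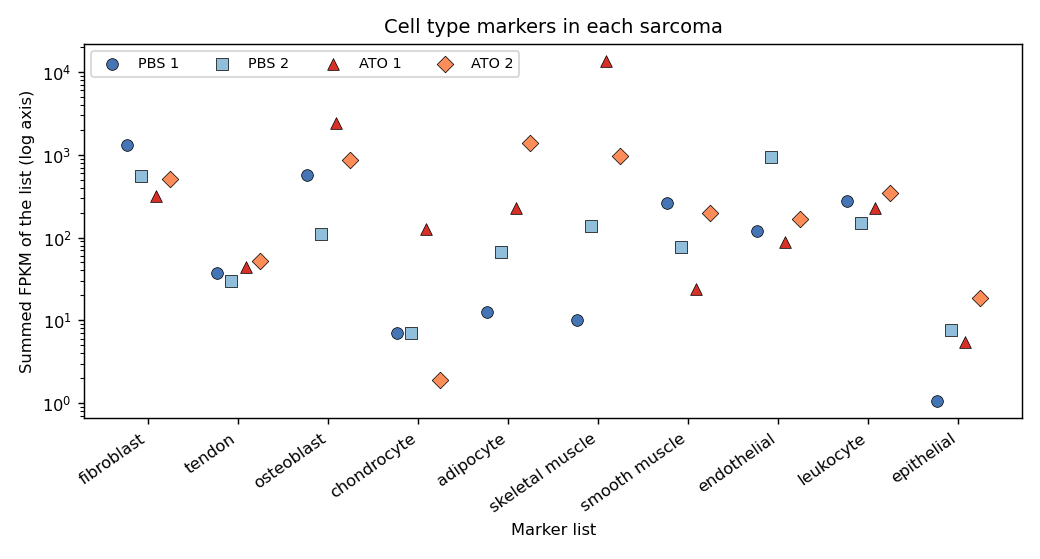
Summed FPKM (log axis) of 10 cell type marker lists in each sarcoma, with 1 point per sarcoma. Both ATO sarcomas lie above both PBS sarcomas for the sums of skeletal muscle, adipocyte, osteoblast and tendon genes. Spp1 makes up most of the osteoblast sum and Thbs4 most of the tendon sum. By gene, this order holds for 2 of 7 osteoblast and 2 of 5 tendon genes tested, against 12.8% of all genes. PBS 2 has the highest endothelial sum at 951.5.

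Over the 10 genes the comparison of ATO with PBS gave 0 genes past an adjusted p of 0.05 by edgeR with Benjamini-Hochberg adjustment, where 0% of all 17188 genes tested passed. Fmod (higher in ATO) and Loxl2 (lower in ATO) had an unadjusted p under 0.05 in edgeR, which held for 8.51% of all genes tested, 5.44% higher and 3.07% lower. DESeq2, tried as an alternative, called the same 2 genes at an adjusted p of 0.05, where it called 4.15% of all genes. Without the filter on low counts edgeR called Fmod alone of the 10, and 1.75% of all genes. By TMM-normalized CPM, both ATO sarcomas lay above both PBS sarcomas for Dcn and Fmod, as for 19.7% of all genes tested, and below both for Loxl2, as for 20.2% of all genes. The same 3 genes had groups that did not overlap by FPKM, where the shares over all genes were 12.8% above and 29.6% below. The 2-against-2 design cannot reach an exact two-sided permutation p below 0.333, so that none was computed for single genes.

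Of the 5 SLRPs, 4 had a higher and 1 a lower fitted level in ATO, with a median log2 fold change of 1.19. Of the 5 lysyl oxidases, 1 had a higher and 4 a lower fitted level, with a median of -0.46. Over all genes tested, 49.2% had a higher and 50.8% a lower fitted level, with a median of -0.016. The lysyl oxidase median was 0.66 without PBS 1, and the SLRP median was 2.64 without it.

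**Figure D2:**
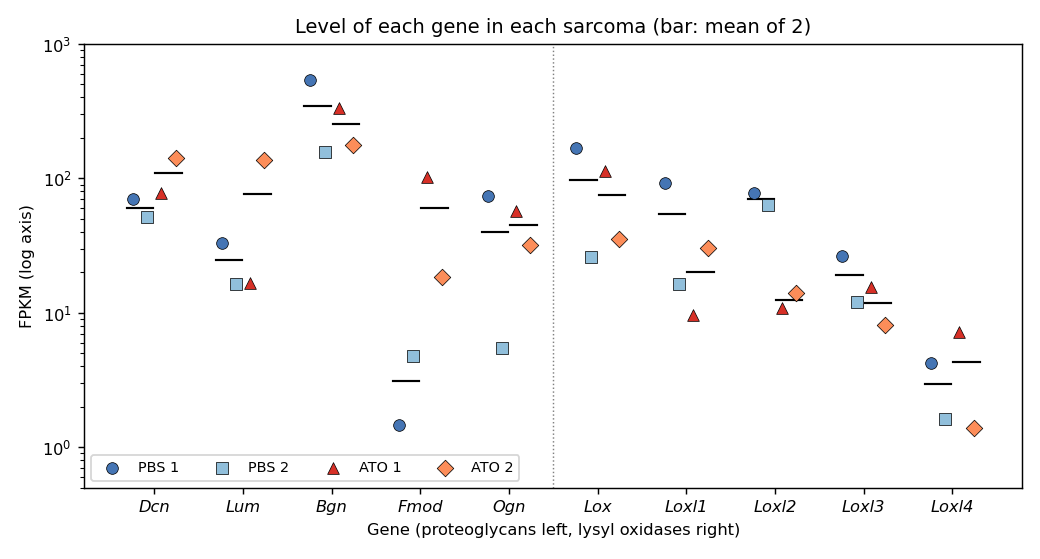
FPKM (log axis) of the 10 genes in each sarcoma, with 1 point per sarcoma and a bar at the mean of the 2 sarcomas of a group. The groups do not overlap for Dcn, Fmod and Loxl2, and PBS 1 lies above PBS 2 for every gene except Fmod.

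The spread inside the control group was wide. By CPM, PBS 1 lay above PBS 2 for 9 of the 10 genes, where this held for 48.6% of all genes tested. Ogn was 13.8 times, Lox 6.58 times, Loxl1 5.79 times and Bgn 3.52 times higher in PBS 1 than in PBS 2. Loxl2 and Dcn differed least between the controls, with ratios of 1.25 and 1.38. Fmod was the exception, at 0.310 times the PBS 2 level in PBS 1. The controls were over 2-fold apart, on log2(CPM + 1), for 8 of the 10 genes, all but Loxl2 and Dcn, and for 24.9% of all genes tested. Inside the ATO group ATO 1 lay above ATO 2 for 6 of the 10 genes, with 50% over all genes tested. Lum was 10.1 times and Loxl1 3.92 times higher in ATO 2, whereas Fmod was 4.52 times and Loxl4 4.20 times higher in ATO 1. Over 2-fold differences between the ATO sarcomas were seen for 6 of the 10 genes, and for 26.8% of all genes.

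Fmod encodes fibromodulin, a keratan sulfate SLRP of tendon and other dense connective tissue that binds collagen I fibrils and lysyl oxidase. It had an FPKM of 1.47 in PBS 1, 4.81 in PBS 2, 102.9 in ATO 1 and 18.6 in ATO 2. Both ATO sarcomas lay above both PBS sarcomas, and the highest and the lowest sarcoma were 70.0-fold apart, the widest range among the 10 genes. On the CPM scale it reached 9.44 ± 7.03 (SD, n = 2) in PBS and 206.9 ± 186.5 (SD, n = 2) in ATO. This gave a log2 fold change of 4.45 (SE 1.08, 95% interval 1.63 to 7.28), with an edgeR adjusted p of 0.570 and an unadjusted p of 0.0104. By DESeq2 the adjusted p was 0.000480, and by edgeR without a filter on low counts it was 0.00786. Leaving out each sarcoma in turn gave log2 fold changes between 2.98 (without ATO 1) and 5.52 (without PBS 2).

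The order of the sarcomas for Fmod (PBS 1, PBS 2, ATO 2, ATO 1) was also that of the summed skeletal muscle genes. It was not particular to muscle. Alpl, of the osteoblast list, had the same order, with an FPKM of 1.28, 1.38, 3.28 and 61.9. The bone genes Ibsp, Sp7 and Bglap and the cartilage collagens Col2a1 and Col11a2 were high in ATO 1 alone, the sarcoma highest for Fmod. All 8 muscle genes and all 5 adipocyte genes lay above both PBS sarcomas in both ATO sarcomas by CPM, as for 19.7% of all genes. Of the 5 tendon genes tested, 4 had a higher and 1 a lower fitted level in ATO, and 2 lay above both PBS sarcomas in both ATO sarcomas. Tnmd, a tendon membrane protein, had an FPKM of 0.76 and 0.82 in PBS against 1.71 and 1.84 in ATO, from 18, 20, 42 and 38 counts in that order. Thbs4, a matrix protein of tendon and muscle, had 23.9 and 15.5 in PBS against 27.6 and 42.5 in ATO. Scx, the tendon transcription factor, had 2.57 and 1.03 against 4.51 and 1.44, with overlapping groups. Mkx, another tendon transcription factor, had 3.24 and 0.43 in PBS against 0.22 and 0.91 in ATO (log2 fold change -1.35), and Egr1 had 6.03 and 12.3 against 9.88 and 5.63, both with overlapping groups. The part of these tissues in the level of Fmod was not tested.

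Fmod (ENSMUSG00000041559) lies on chromosome 1 of GRCm38 at 134037254 to 134048277 on the plus strand. RefSeq promoter sequences of GRCm38.p6, which run from 250 bases before to 50 bases after a gene's start, were at hand for 4 of the 10 genes (Fmod, Ogn, Bgn and Loxl4). Those of Fmod and Ogn are shown because they shared the longest identical stretch of the 6 pairs, 11 bases, which stands in capitals. The windows are chr1:134037004-134037303 for Fmod and chr13:49607765-49608064 for Ogn, both on the plus strand. Positions in them count from the RefSeq start, which for Ogn lies before the start of the gene in GENCODE M21.
Fmod: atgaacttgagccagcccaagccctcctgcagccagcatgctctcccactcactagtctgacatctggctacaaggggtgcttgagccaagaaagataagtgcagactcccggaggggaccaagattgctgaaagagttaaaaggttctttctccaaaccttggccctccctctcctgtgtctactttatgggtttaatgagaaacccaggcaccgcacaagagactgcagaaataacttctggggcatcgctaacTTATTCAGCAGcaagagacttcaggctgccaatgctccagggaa
Ogn: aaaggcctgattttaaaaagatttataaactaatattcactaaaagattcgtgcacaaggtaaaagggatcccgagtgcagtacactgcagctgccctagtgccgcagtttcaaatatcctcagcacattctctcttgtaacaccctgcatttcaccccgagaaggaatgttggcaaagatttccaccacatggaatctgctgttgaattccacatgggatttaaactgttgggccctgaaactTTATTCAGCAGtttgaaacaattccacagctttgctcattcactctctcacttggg
The shared stretch TTATTCAGCAG begins at position 7 after the start in Fmod and at position -6 in Ogn, and 10 of the 32851 promoters in the table (0.0304%) hold it on either strand. It was found in these sequences and not sought beforehand, so that its rarity does not measure how unusual the sharing is. The next longest stretches, of Bgn with Fmod and of Bgn with Ogn, were 10 bases each. Nothing is known here of a factor that reads the shared stretch. The windows were also searched on both strands for TATAAA (the TATA box, in 13.6% of all promoters), GGGCGG (the GC box, 35.7%), TGANTCA (the AP-1 site, 7.81%) and ACGTG (the core of the hypoxia response element, 19.6%). The window of Fmod held 0 matches of each, and that of Ogn held 2 of TATAAA, overlapping on opposite strands. Those of Bgn and Loxl4 held 3 matches of GGGCGG each and 0 of the other motifs. The GC content was 42.3% for Ogn, 51% for Fmod, 63.7% for Bgn and 75% for Loxl4, with a median of 52.7% over all promoters.

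Prelp, which encodes a basement membrane SLRP, is the neighbour of Fmod, 115.8 kb away with 0 coding genes between them. Its FPKM was 1.44 in PBS 1, 15.02 in PBS 2, 18.2 in ATO 1 and 51.5 in ATO 2. Both ATO sarcomas lay above both PBS sarcomas, with ATO 1 close to PBS 2. By FPKM this held for 1 of the 10 further SLRPs tested and for 12.8% of all genes. In log2 terms ATO exceeded PBS by 2.44 (SE 1.26), with an adjusted p of 0.643 by edgeR. Optc, opticin, an SLRP best known from the eye, lies next to Prelp and had an FPKM of 0.93 and 0.50 in PBS against 0.02 and 0.13 in ATO. These values rest on 42 and 23 counts in PBS and on 1 and 5 in ATO, where counting error is large. The genes of this cluster were not ordered alike over the sarcomas, with ATO 1 highest for Fmod, ATO 2 for Prelp and PBS 1 for Optc.

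Dcn encodes decorin, a chondroitin or dermatan sulfate SLRP of the fibril surface that also binds Tgfb. The gene (ENSMUSG00000019929) lies on chromosome 10 of GRCm38 at 97479609 to 97518143 on the plus strand. Its FPKM was 69.9 in PBS 1, 51.2 in PBS 2, 78.1 in ATO 1 and 143.1 in ATO 2. Both ATO sarcomas lay above both PBS sarcomas, although ATO 1 lay close to PBS 1. Its level was 322.9 ± 73.6 CPM (SD, n = 2) in PBS and 737.7 ± 401.2 CPM (SD, n = 2) in ATO. The difference on the log2 scale was 1.19 (SE 0.64, 95% interval -0.49 to 2.88, edgeR adjusted p 0.656), and it lay between 0.50 without ATO 2 and 1.64 without ATO 1.

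Lum encodes lumican, a keratan sulfate SLRP that regulates fibril assembly in cornea, skin and tendon. It lies 47.0 kb downstream of Dcn on chromosome 10 (GRCm38, 97565128 to 97572703, plus strand), with 0 coding genes between them. Its FPKM was 33.1 in PBS 1, 16.3 in PBS 2, 16.7 in ATO 1 and 137.1 in ATO 2, so that a high level was seen in ATO 2 and the groups overlapped. Its log2 fold change of 2.03 (SE 1.16, 95% interval -1.01 to 5.06, edgeR adjusted p 0.671) turned to -0.44 without ATO 2. Dpt and Pi16, which mark fibroblasts of loose connective tissue, were likewise highest in ATO 2, with an FPKM of 142.3 and 35.9 there and at most 31.3 and 12.9 in the other sarcomas. They were 2 of 10 fibroblast genes, of which 7 were highest in PBS 1 and Fap in ATO 1. ATO 2 also had the highest sum of adipocyte genes and the highest mitochondrial share, and their part in the level of Lum was not tested. Kera and Epyc, the other SLRP genes of this cluster, had an FPKM of at most 0.49 in any sarcoma and did not pass the filter.

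Bgn encodes biglycan, the closest relative of decorin, and was the most abundant of the 10 genes by mean FPKM, above 99.5% of all genes tested. The gene (ENSMUSG00000031375) lies on chromosome X at 73483602 to 73495933 on the plus strand. Its FPKM was 541.3 in PBS 1, 156.0 in PBS 2, 331.8 in ATO 1 and 176.7 in ATO 2. The ATO sarcomas lay between the PBS sarcomas. The log2 fold change was -0.22 (SE 0.89, 95% interval -2.55 to 2.11, edgeR adjusted p 0.959), and it was 0.95 without PBS 1 and 0.051 without ATO 2. The interval spans a more than 4-fold difference in each direction, so that these sarcomas neither show nor exclude one of that size.

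Ogn encodes osteoglycin, also called mimecan, an SLRP first obtained from bone. Its FPKM was 74.4 in PBS 1, 5.46 in PBS 2, 57.3 in ATO 1 and 32.0 in ATO 2, so that PBS 2 stood low and PBS 1 lay above both ATO sarcomas. A log2 fold change of 0.39 (SE 1.18, 95% interval -2.69 to 3.48, edgeR adjusted p 0.945) became -0.51 without PBS 2. Ogn (ENSMUSG00000021390, 49608046 to 49624501, plus strand) ends a row of SLRP genes on chromosome 13, after Ecm2, Aspn and Omd, with gaps of 11.7 to 15.2 kb. Omd, osteomodulin, was also lowest in PBS 2, with an FPKM of 0.22 there and 2.07 to 10.9 elsewhere. Aspn, asporin, was highest in PBS 1 (151.4) and lowest in ATO 1 (20.3), and Ecm2 lay between 1.52 and 4.22.

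**Figure D3:**
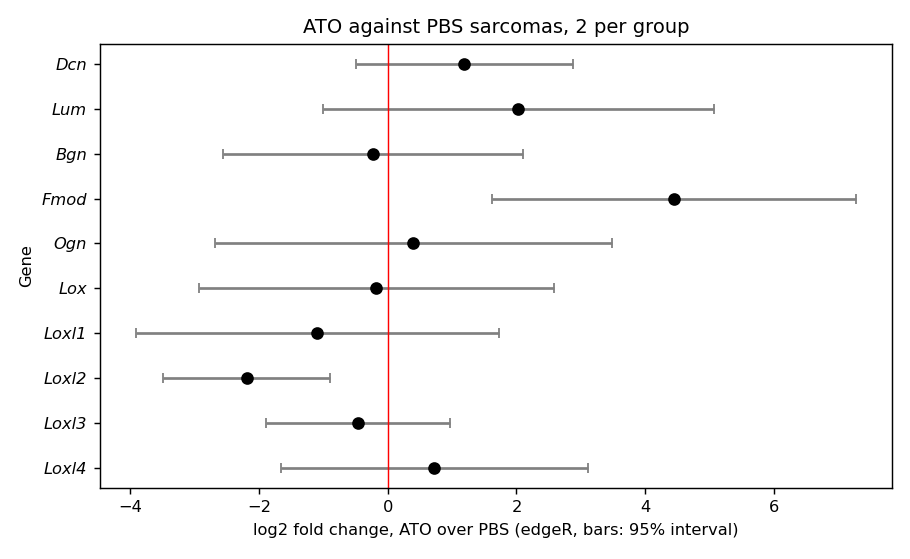
Log2 fold change of ATO over PBS for each of the 10 genes from edgeR, with 95% intervals as bars (2 sarcomas per group). The intervals of Fmod (1.63 to 7.28) and Loxl2 (-3.48 to -0.90) exclude 0 before adjustment over all genes, and the other 8 include it.

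Loxl2 encodes a lysyl oxidase with scavenger receptor domains that crosslinks collagen IV of basement membranes, and its gene (ENSMUSG00000034205) lies on chromosome 14 of GRCm38 at 69609068 to 69695834 on the plus strand. It had an FPKM of 77.8 in PBS 1, 63.3 in PBS 2, 10.9 in ATO 1 and 14.2 in ATO 2. Both ATO sarcomas lay below both PBS sarcomas, and the sarcomas of each group lay close together. Its level was 348.0 ± 53.9 CPM (SD, n = 2) in PBS and 76.1 ± 24.6 CPM (SD, n = 2) in ATO. This was a log2 fold change of -2.19 (SE 0.49, 95% interval -3.48 to -0.90), a 4.57-fold lower fitted level, with an edgeR adjusted p of 0.570 and an unadjusted p of 0.00776. By DESeq2 the adjusted p was 0.00865, and it was 0.0901 by edgeR without a filter. With each sarcoma left out the log2 fold change lay between -2.56 (without ATO 2) and -1.91 (without ATO 1).

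In contrast to the other lysyl oxidases, Loxl2 was at a like level in PBS 1, with the highest fibroblast sum, and PBS 2, with the highest endothelial sum. Of the 5 mesenchymal genes, Vim and Sparc, a collagen-binding matrix protein, had lower levels in both ATO than in both PBS sarcomas as well. Col1a1, Col1a2 and Col3a1 had overlapping groups, with log2 fold changes of 0.25, 0.97 and -1.24. Pdgfrb, Thy1, Col6a1 and Col6a2 were the 4 of 10 fibroblast genes that lay below both PBS sarcomas in both ATO sarcomas, as for 20.2% of all genes, and Dpt, Pi16 and Fap had higher fitted levels in ATO (log2 fold changes 2.10, 1.82 and 1.26). Over the whole fibroblast list the median was -0.999 in log2 fold change, with 0 of 10 genes past the adjusted threshold in edgeR or DESeq2, and a median of 0.70 without PBS 1. The part of the cell type makeup in the level of Loxl2 was not tested. An antisense gene, Gm27177, overlaps 5.57% of the exonic bases of Loxl2, and whether reads were counted by strand is not given in the sources used here.

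Lox encodes the founding lysyl oxidase, secreted as a proenzyme that Bmp1 cleaves. It had an FPKM of 168.0 in PBS 1, 25.9 in PBS 2, 114.5 in ATO 1 and 35.4 in ATO 2. The ATO sarcomas lay between the PBS sarcomas, with 1 high and 1 low sarcoma in each group. The log2 fold change was -0.18 (SE 1.05, 95% interval -2.93 to 2.58, edgeR adjusted p 0.974), and it was 1.74 without PBS 1, 0.36 without ATO 2 and 0.22 with the replicate number as a block. Col1a1, the main chain of collagen I, had the same high and low sarcomas, at 2276 and 273.3 in PBS and 2413 and 315.1 in ATO. The ratio of Lox to Col1a1 was 0.0738 and 0.0948 in PBS and 0.0475 and 0.112 in ATO.

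Loxl1, which acts on elastic fibres, had an FPKM of 93.1 in PBS 1, 16.3 in PBS 2, 9.57 in ATO 1 and 30.6 in ATO 2. PBS 1 stood apart, and the other sarcomas overlapped. Its log2 fold change of -1.10 (SE 1.07, 95% interval -3.91 to 1.72, edgeR adjusted p 0.802) was 0.66 without PBS 1. Loxl3, a relative of Loxl2 needed for palate and spine development, had 26.3, 12.1, 15.7 and 8.16 in PBS 1, PBS 2, ATO 1 and ATO 2. Its log2 fold change was -0.46 (SE 0.55, 95% interval -1.89 to 0.97, edgeR adjusted p 0.841) and was 0.22 without PBS 1. The coding gene Htra2 overlaps 11.6% of the exonic bases of Loxl3 on the other strand, which leaves this value less certain. Loxl4 was the least abundant of the 10 genes, at 4.27 and 1.62 in PBS and 7.21 and 1.40 in ATO, with a log2 fold change of 0.72 (SE 0.91, 95% interval -1.66 to 3.10, edgeR adjusted p 0.852) that became -0.67 without ATO 1.

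The lysyl oxidases share a catalytic domain, whose copper is held by histidines in a stretch of 11 codons that was found in the coding sequence of all 5. The stretches of the 4 Loxl genes, from GENCODE M21 transcripts of GRCm38, are shown because this site is what unites genes with such different levels. The 4 histidine codons stand in capitals.
Loxl1: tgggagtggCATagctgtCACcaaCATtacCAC
Loxl2: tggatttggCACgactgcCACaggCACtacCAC
Loxl3: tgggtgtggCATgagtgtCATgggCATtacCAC
Loxl4: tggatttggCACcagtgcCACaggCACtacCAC
The stretch was split over 2 exons in all 5 genes, and in the 4 shown after base 23 of its 33 bases. The first parts are chr9:58294359-58294381 (minus strand) for Loxl1, chr14:69682316-69682338 (plus) for Loxl2, chr6:83049995-83050017 (plus) for Loxl3 and chr19:42599877-42599899 (minus) for Loxl4. The second parts are chr9:58293720-58293729, chr14:69689028-69689037, chr6:83050116-83050125 and chr19:42598807-42598816 in the same order. Loxl2 and Loxl4 were identical in 31 of the 33 bases and Loxl1 and Loxl4 in 21, the closest and the most distant of the pairs. Among all transcripts of the 10 genes the longest identical stretch of any pair was 40 bases, between Dcn and Bgn, and the longest between lysyl oxidases was 32 bases, between Lox and Loxl1. Both are shorter than a read.

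**Figure D4:**
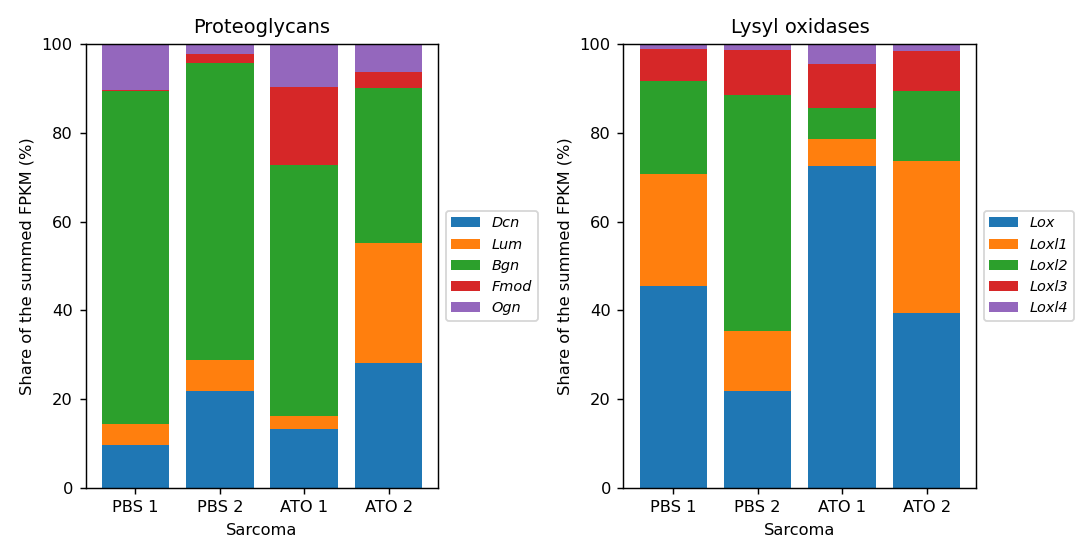
Share (%) of each gene in the summed FPKM of the 5 proteoglycans (left) and the 5 lysyl oxidases (right), with 1 bar per sarcoma. Bgn takes 75.2% and 66.7% of the proteoglycan sum in PBS and 56.6% and 34.8% in ATO, and Loxl2 takes its lowest share, 6.92%, in ATO 1.

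The makeup of each family was compared within sarcomas, which needs no scaling between them. Bgn took 75.2% of the summed FPKM of the 5 SLRPs in PBS 1 and 66.7% in PBS 2, against 56.6% in ATO 1 and 34.8% in ATO 2. Its share was thus lower in both ATO sarcomas, although its own level was not. In ATO 1 Fmod took 17.5% of the sum, against 0.204% in PBS 1, 2.06% in PBS 2 and 3.66% in ATO 2. In ATO 2 Lum and Dcn took 27.0% and 28.2%, against 2.84% and 13.3% in ATO 1. Both ATO sarcomas thus had a smaller part of Bgn, with different SLRPs in its place. The shares were not tested. Values of 2 alike groups of 2 sarcomas separate, in either direction, with a probability of 0.333.

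Among the lysyl oxidases, Loxl2 took 21.0% of the summed FPKM in PBS 1 and 53.1% in PBS 2, against 6.92% in ATO 1 and 15.8% in ATO 2. Lox took 45.5% and 21.7% in PBS and 72.5% and 39.4% in ATO, with overlapping groups. Loxl2 was the leading lysyl oxidase in PBS 2, and Lox in the other sarcomas. The summed FPKM of the 5 lysyl oxidases was 369.5 and 119.3 in PBS and 157.9 and 89.7 in ATO, and that of the SLRPs 720.2 and 233.8 in PBS and 586.7 and 507.4 in ATO. Set against the 9 fibrillar collagen chains, the SLRP sum was 14.8% and 30.6% of the collagen sum in PBS and 14.1% and 52.9% in ATO, and the lysyl oxidase sum 7.61% and 15.6% in PBS and 3.79% and 9.34% in ATO. For both ratios the sarcomas with little collagen (PBS 2 and ATO 2) had the higher value within their group, and the groups overlapped. The collagen sum is the denominator, so that a low sum by itself raises the ratio.

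The substrates, partners and modifying enzymes of the 10 genes were taken from lists, and 0 of their genes passed an adjusted p of 0.05 in edgeR. Among the 9 fibrillar collagen chains, 4 had a higher and 5 a lower fitted level, with a median log2 fold change of -0.46, and the median was 2.49 without PBS 1 and 0.048 without ATO 2. DESeq2 called 2 of the 9, Col2a1 and Col11a2, collagens of cartilage whose FPKM was 21.3 and 100.9 in ATO 1 and at most 0.25 and 2.38 elsewhere. The 10 tested of 12 further SLRPs had a median of 0.60, with 6 higher and 4 lower, and the median was 0.11 without ATO 2 and 1.18 without PBS 1.

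Of the 16 enzymes and chaperones that modify and fold collagen in the endoplasmic reticulum, 15 had a lower fitted level in ATO, with a median log2 fold change of -0.77, where 50.8% of all genes tested were lower. None of the 16 passed the adjusted threshold by edgeR or DESeq2, and 2, Plod2 and P4ha2, had an unadjusted p under 0.05 in edgeR. By CPM 10 of the 16 lay below both PBS sarcomas in both ATO sarcomas, as for 20.2% of all genes. This count of lower fitted levels, added after the data were seen, was 14 without PBS 1, whereas that of the lysyl oxidases was then 1 of 5. Plod2, the telopeptide lysyl hydroxylase whose product lysyl oxidase acts on, had an FPKM of 19.2 and 17.0 in PBS against 7.34 and 4.73 in ATO (log2 fold change -1.33, SE 0.37, adjusted p 0.570 by edgeR). P4ha2, a prolyl hydroxylase subunit, had 14.1 and 18.1 against 4.99 and 6.20 (log2 fold change -1.23, SE 0.42, adjusted p 0.570 by edgeR). P4hb and Serpinh1, the most abundant of the list, had 530.3 and 317.2 against 191.8 and 148.2, and 440.9 and 318.8 against 181.0 and 191.2.

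**Figure D5:**
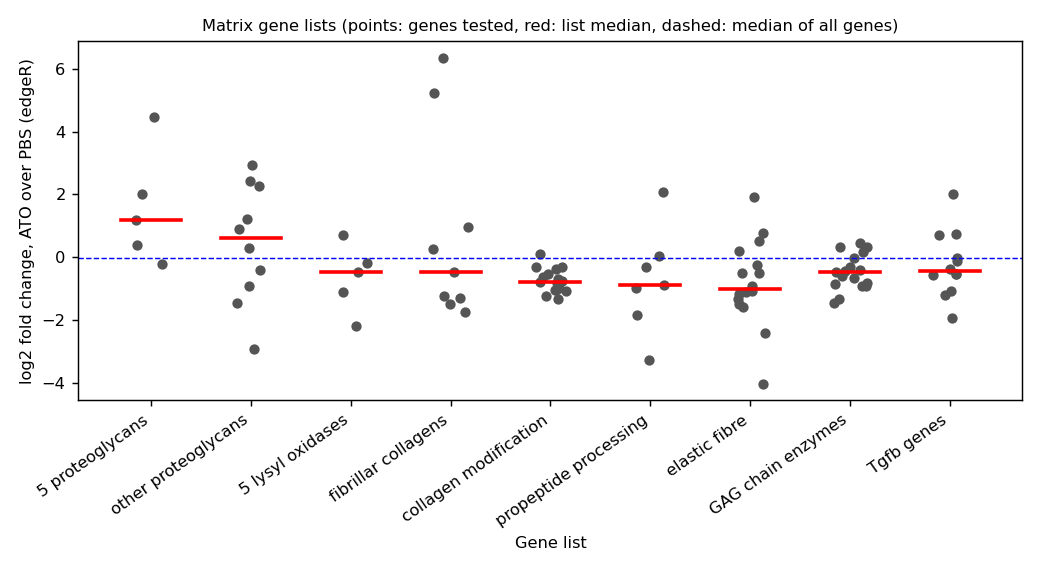
Log2 fold change of ATO over PBS (edgeR) for the genes tested of 9 matrix gene lists, with the median of each list in red and that of all genes dashed. The collagen modification list, with a median of -0.77, spans the narrowest range, -1.33 to 0.10.

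Of the 16 elastic fibre genes, 12 had a lower fitted level, with a median log2 fold change of -1.001, which was 0.18 without PBS 1, where 7 were lower. Fbn2, a fibrillin, had 19.3 and 1.33 in PBS against 0.34 and 0.68 in ATO (log2 fold change -4.02, SE 1.42, edgeR adjusted p 0.570, DESeq2 adjusted p 0.0256). Eln, elastin itself, had 10.7 and 11.7 in PBS against 8.21 and 7.21 in ATO, and differed by -0.26 on the log2 scale (SE 0.35, adjusted p 0.858 by edgeR). Of the 17 enzymes that build the glycosaminoglycan chains of decorin and biglycan, 13 had a lower fitted level, with a median of -0.47, and 8 without PBS 1, where the median was 0.20. Of 7 tested genes of propeptide processing, 5 had a lower fitted level, with a median of -0.87 that was -0.038 without PBS 1. Bmp1, which activates Lox and trims Bgn, differed by 0.033 on the log2 scale (SE 0.58, adjusted p 0.993 by edgeR). Among 12 Tgfb ligands, receptors and targets 9 were lower, with a median of -0.45 that was 0.029 without PBS 1. Ccn2, a secreted target of Tgfb and mechanical load, had an FPKM of 8.53 and 32.2 in PBS against 46.2 and 85.8 in ATO (log2 fold change 2.03, SE 0.83, edgeR adjusted p 0.596). Postn, periostin, which promotes the activation of Lox, had 383.3 and 83.4 against 26.2 and 70.1 (log2 fold change -1.93, SE 1.09, edgeR adjusted p 0.669), and by CPM its groups overlapped.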

How the data were processed

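The authors trimmed reads with Cutadapt 1.9.1, aligned them to GRCm38 with HISAT2 2.0.1 and used HTSeq to count genes. The deposited raw counts are not normalized. The deposited FPKM equal count divided by exonic size and total count, within rounding, for all 56691 genes. Strand setting and multi-mapping reads are not given in the sources used here. Gene positions were taken from GENCODE M21, because only 2.76% of 52073 shared genes have that position in the table. The table thus differs from GENCODE M21 of GRCm38 for most genes. The overlaps with other genes given here are those of GENCODE M21, and the annotation behind the counts may differ.

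The main test was the quasi-likelihood F-test of edgeR 4.0.16 (R 4.3.3) after filterByExpr and TMM, with Benjamini-Hochberg adjustment over 17188 genes. Alternatives were DESeq2 1.42.0, its size factors, total count scaling, omitting the filter, keeping genes of mean FPKM from 1, limma 3.58.1 on log2 FPKM, no mitochondrial genes, a replicate block and each sarcoma left out. The tests were tried on simulated counts. Members and lists were chosen with earlier results of these data known. Named were all members and a choice of list genes, which did not cover the largest change of every list. Chad of the further SLRPs (log2 fold change 2.95, edgeR adjusted p 0.617) is named only here. The same holds for Adamts3 of propeptide processing (-3.26, edgeR adjusted p 0.570). Between 0.165 and 0.197 CPM, 3 counts, is the limit a count of 0 allows (counting error only).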

Additional observations from a re-analysis of the deposited data

How the results depend on the processing

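The groups held 2 sarcomas each, with a biological coefficient of variation of 62.5%. The number of genes past the adjusted threshold, 0 in edgeR with 1463 at an unadjusted p under 0.05, was 714 by DESeq2 and 541 when edgeR was run unfiltered, and that of the 10 genes was 2 and 1 there. Both numbers were 0 in the other alternatives, and between 0 and 0 with each sarcoma left out, where the lone sarcoma of a group is taken to vary like the others. The cause was not tested. The median log2 fold change of the SLRPs lay between 0.50 and 2.64 with each sarcoma left out, and that of the lysyl oxidases between -0.98 and 0.66. Of 130 alternative values for the single genes, 116 kept direction and side of the threshold, 3 passed it and 11 turned direction. Those 11 were Bgn (0.012 with the replicate block, 0.95 without PBS 1, 0.051 without ATO 2), Lox (0.22, 1.74 and 0.36 in the same order), Lum (-0.44 without ATO 2), Ogn (-0.51 without PBS 2), Loxl1 and Loxl3 (0.66 and 0.22 without PBS 1) and Loxl4 (-0.67 without ATO 1). With each sarcoma left out these genes lay between -0.87 and 0.95 (Bgn), -1.06 and 1.74 (Lox), -0.44 and 2.87 (Lum), -0.51 and 3.28 (Ogn), -2.40 and 0.66 (Loxl1), -0.92 and 0.22 (Loxl3) and -0.67 and 1.60 (Loxl4). Dcn, Fmod and Loxl2 kept their direction in all 13 alternatives. They are the 3 genes whose groups did not overlap, and on the same scaling leaving out 1 sarcoma cannot turn the direction of such a gene. The kept direction thus adds little to the lack of overlap. Total count scaling moved the median of all genes to -0.28 and FPKM in limma to -0.18 and -0.27 with pseudocounts of 1 and 0.1, and the SLRP median to 0.87, 0.99 and 1.04 and the lysyl oxidase median to -0.69, -0.61 and -0.65.

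The labels share replicate numbers between the groups without saying that they pair sarcomas, and the deviations of same-numbered sarcomas correlated at -0.021. With the replicate block 0 genes passed, and the SLRP and lysyl oxidase medians were 1.31 and -0.38.

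The list medians that turned direction with 1 sarcoma left out ranged from -1.10 to 2.49 for fibrillar collagen, which turned without PBS 1 and, at 0.048, without ATO 2. Those that turned without PBS 1 ranged from -1.74 to 0.18 for elastic fibre, -0.76 to 0.20 for glycosaminoglycan, -0.36 to 0.029 for Tgfb, -1.57 to 0.70 for fibroblast and -0.999 to 0.46 for mesenchymal genes, and from -2.37 to 1.75 for smooth muscle, which also turned without ATO 1 (0.78). Osteoblast (-0.54 to 6.31) and chondrocyte (-1.23 to 5.04) genes turned without ATO 1, leukocyte (-0.20 to 0.90) and epithelial (-0.59 to 4.55) genes without ATO 2, and endothelial genes (-2.48 to 0.55) without PBS 2. The median of the further SLRPs lay between 0.11 and 1.18 with each sarcoma left out, and was 1.13 with the replicate block and 1.07 for genes of mean FPKM from 1.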

Other observations

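Across the 10 genes, the sarcomas most alike were from different groups. The median absolute log2 ratio of FPKM + 1 over the 10 genes was 0.71 between PBS 1 and ATO 1, against 1.15 between the PBS sarcomas, 1.24 between the ATO sarcomas and 1.17 to 1.59 for the other pairs. PBS 1 was the higher of the pair in 7 of the 10 genes against ATO 1 and also in 7 against ATO 2, whereas PBS 2 was higher in 2 and 3. PBS 1 and ATO 1 were also the sarcomas with much fibrillar collagen, with a summed FPKM of 4852 and 4166 against 763.2 in PBS 2 and 959.9 in ATO 2. These are descriptions of 4 sarcomas, and no test was made.

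Within the SLRPs, the ratio of decorin to biglycan FPKM was 0.129 in PBS 1, 0.328 in PBS 2, 0.235 in ATO 1 and 0.810 in ATO 2. The ratio of Lox to Loxl2 was 2.16 and 0.409 in PBS against 10.5 and 2.50 in ATO. Both ATO sarcomas thus lay above both PBS sarcomas, ATO 2 only slightly. Of the 2 genes, Lox had overlapping groups and Loxl2 did not, so that the ratio adds little to the values of Loxl2. The ratio was not tested, and 2 alike groups of 2 sarcomas separate, in either direction, with a probability of 0.333.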
